A study of Mus musculus with 6 samples.

Results

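The T cell receptor is read out inside the cell by a set of CD3 chains and by a short chain of kinases and adaptors, and 10 of these genes were followed here through the fetal liver progenitors that come before the thymus. The genes were Cd3e, Cd3g, Cd3d and Cd247 (receptor chains), Cd4 (coreceptor), Cd28 (costimulator), Lck and Zap70 (kinases), and Lat and Lax1 (adaptors). They were chosen by name, and all 10 were matched by RefSeq accession to 12 non-control probes, out of 20667 named genes and 55681 probes on the array. Cd4 and Zap70 had 2 probes each. RNA came from E18.5 fetal liver of Satb1-null mice and wild type littermates on the C57BL6/J background, and the labels give no allele for the null. Satb1 encodes a nuclear protein that organises chromatin in thymocytes, and the series asked which genes depend on it in early progenitors. Each genotype gave 1 array of each of 3 sorted populations. HSC (haematopoietic stem cell enriched) cells were lineage negative, c-kit high, Sca-1 positive and Flt3 negative, LMPP (lymphoid-primed multipotent progenitor enriched) cells were the same but Flt3 positive, and CLP (common lymphoid progenitor enriched) cells were c-kit low, Sca-1 low and IL7Rα positive. No group was replicated, so a difference between 2 arrays has no replicate check, and the number of arrays limits the precision.

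In a mature T cell the antigen receptor has no signalling tail of its own. The CD3 epsilon, gamma and delta chains and the zeta chain encoded by Cd247 carry the tyrosine motifs that the kinase Lck phosphorylates, Zap70 docks on these motifs, and Zap70 then phosphorylates the membrane adaptor Lat, on which the downstream enzymes assemble. CD4 brings Lck to the receptor when it binds MHC class II, CD28 adds a costimulatory signal, and Lax1 is a Lat-like adaptor that dampens receptor signalling in T and B cells. Complete CD3 assembly is a feature of cells in the thymus, whereas several kinases and adaptors of the pathway are also used by NK cells, mast cells and platelets.

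The start sites of 4 genes are shown because these genes carry the contrasts described next: Lax1 had the widest span of levels among the probes detected on all arrays, Lck is transcribed from a pair of separate start sites, and Cd3e and Cd3d are neighbours of which only the first was detected. Each window runs from 250 bases before to 50 bases after a RefSeq transcript start in GRCm38.p6. Capitals mark CANNTG (the E-box bound by E proteins), CAGGAA (an Ets core) and TGTGGT (a Runx core), each searched on both strands, and neighbouring matches can overlap.
Lax1, chr1:133690059-133690358, minus strand: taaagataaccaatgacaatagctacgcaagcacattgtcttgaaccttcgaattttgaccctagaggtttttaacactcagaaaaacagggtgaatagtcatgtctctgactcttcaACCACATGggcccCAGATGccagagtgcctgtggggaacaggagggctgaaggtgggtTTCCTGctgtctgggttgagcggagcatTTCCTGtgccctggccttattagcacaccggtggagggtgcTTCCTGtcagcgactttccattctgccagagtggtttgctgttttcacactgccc
Lck upstream start, chr4:129573592-129573891, minus strand: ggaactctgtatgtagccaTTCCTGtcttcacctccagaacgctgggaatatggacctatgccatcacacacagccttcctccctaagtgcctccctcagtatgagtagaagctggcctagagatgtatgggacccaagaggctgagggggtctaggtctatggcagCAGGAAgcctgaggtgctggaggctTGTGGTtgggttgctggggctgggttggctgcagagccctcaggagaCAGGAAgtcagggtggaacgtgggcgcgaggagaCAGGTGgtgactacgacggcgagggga
Lck downstream start, chr4:129558323-129558622, minus strand: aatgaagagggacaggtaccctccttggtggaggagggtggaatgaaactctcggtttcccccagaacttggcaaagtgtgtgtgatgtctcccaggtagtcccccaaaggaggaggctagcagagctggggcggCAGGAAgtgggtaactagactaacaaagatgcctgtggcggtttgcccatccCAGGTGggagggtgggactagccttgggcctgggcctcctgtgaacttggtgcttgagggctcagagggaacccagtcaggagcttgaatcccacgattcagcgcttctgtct
Cd3e, chr9:45009562-45009861, minus strand: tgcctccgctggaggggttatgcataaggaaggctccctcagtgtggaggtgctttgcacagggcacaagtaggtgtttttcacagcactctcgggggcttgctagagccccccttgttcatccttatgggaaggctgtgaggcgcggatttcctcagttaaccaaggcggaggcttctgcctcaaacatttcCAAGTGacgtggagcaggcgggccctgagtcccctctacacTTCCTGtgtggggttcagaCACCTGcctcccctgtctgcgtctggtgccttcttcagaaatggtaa
Cd3d, chr9:44981536-44981835, plus strand: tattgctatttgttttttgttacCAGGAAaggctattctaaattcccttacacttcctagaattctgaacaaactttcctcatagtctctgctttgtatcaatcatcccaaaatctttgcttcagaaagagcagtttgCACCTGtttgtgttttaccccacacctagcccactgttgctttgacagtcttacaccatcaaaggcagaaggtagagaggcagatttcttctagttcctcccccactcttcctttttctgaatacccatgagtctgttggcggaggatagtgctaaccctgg

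Of the 10 genes, 8 had entries in the promoter table, with 12 windows in all, and Cd4 and Cd28 had none. An E-box was found in 72.3% of all 32851 promoter windows of this length, the Ets core in 30.6% and the Runx core in 16.8%. Lax1 held 2 E-boxes, 3 Ets cores and 1 Runx core, and the upstream Lck start held 1, 3 and 1. Cd3e held 2 E-boxes and 1 Ets core, and Cd3d held 1 of each. The share of A and T bases was 49.7% for the Lax1 start shown and 44.0% for a second Lax1 start in an overlapping window. It was 41.7% and 42.7% for the Lck starts, 43.3% for Cd3e and 57.7% for Cd3d, against a median of 47.3% over all windows. These matches describe the letters only. In the reference Cd3g, Cd3d and Cd3e lie next to each other on chromosome 9.

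Levels are log2 intensities relative to the 75th percentile of the non-control spots of the same array, so that 0 is the 75th percentile and a difference of 1 is 2-fold. Between 52.4% and 57.7% of the non-control spots of an array were called well above background by the scanner software, and the lowest such probe lay between -4.19 and -3.99. All arrays lay on 1 slide with wild type in row 1 and Satb1-null in row 2, and the effect of genotype and that of the row cannot be told apart. The 1 Satb1 probe went from -0.03 in HSC to 1.996 in LMPP and 0.71 in CLP on the wild type arrays, against -0.59, 1.96 and 0.65 on the Satb1-null arrays, and no source used here places it inside or outside the deleted part, so it does not check the labels. Flt3 was highest in LMPP and Il7r highest in CLP in both genotypes, as sorted. The fit of genotype called 3 probes, 1 of them for Xist, the X-inactivation RNA of female cells (8.52 higher in Satb1-null), so a signal of embryo sex moved with genotype, and its part in the genotype differences was not tested. Of 10 T cell markers, 4 or 5 were well above background on each array, and Cd8a, Bcl11b and Trat1 were so on none. The number of embryos behind each sample, and any pooling, is not stated in the labels. In sorted bulk samples fewer cells that carry a transcript and less transcript per cell cannot be told apart.

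The receptor chains were dim or absent from detection. Cd3g, Cd3d and Cd247 were not well above background on any of the 6 arrays, and Cd3e was so on 5. Over all probes of the array 31.9% were well above background on none and 43.1% on all 6, against 3 and 6 of the 12 probes here. The Cd3g signal lay between 2.31 and 9.20 intensity units, that of Cd247 between 2.27 and 5.06, and that of Cd3d between 2.91 and 14.1, the last in wild type CLP. For scale, the lowest probe well above background on an array had an intensity of 10.4 to 12.9. No difference between groups was formed for these 3 genes, except in the alternative with no filter and floor, where it compares undetected readings.

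Cd3e, the epsilon chain that pairs with the gamma and delta chains, went from -1.72 (HSC) to -3.29 (LMPP) and -3.80 (CLP, not well above background) on the wild type arrays. On the Satb1-null arrays it went from -2.78 to -3.24 and -1.997. The 2 brightest arrays were thus wild type HSC and Satb1-null CLP, and the LMPP arrays differed by 0.05, within the scanner error of 0.40 (the software's own error, combined over both arrays). The direction of the genotype difference was opposite at the ends of the sequence: -1.05 in HSC (2.08-fold lower in Satb1-null) and 1.81 in CLP (3.50-fold higher). With normexp background correction, which adds 50 units to every signal, the same differences were -0.46 and 0.45 and neither reached 2-fold. The CLP value was formed as a bound, which sets the bright array against the dim probe's own value or the array's detection floor, whichever is higher. Here the probe's own undetected reading was the higher, so 1.81 is the plain difference of the 2 arrays, with a scanner error of 0.38. All these Cd3e readings rest on 1 spot per array of at most 57.6 intensity units.

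**Figure D1:**
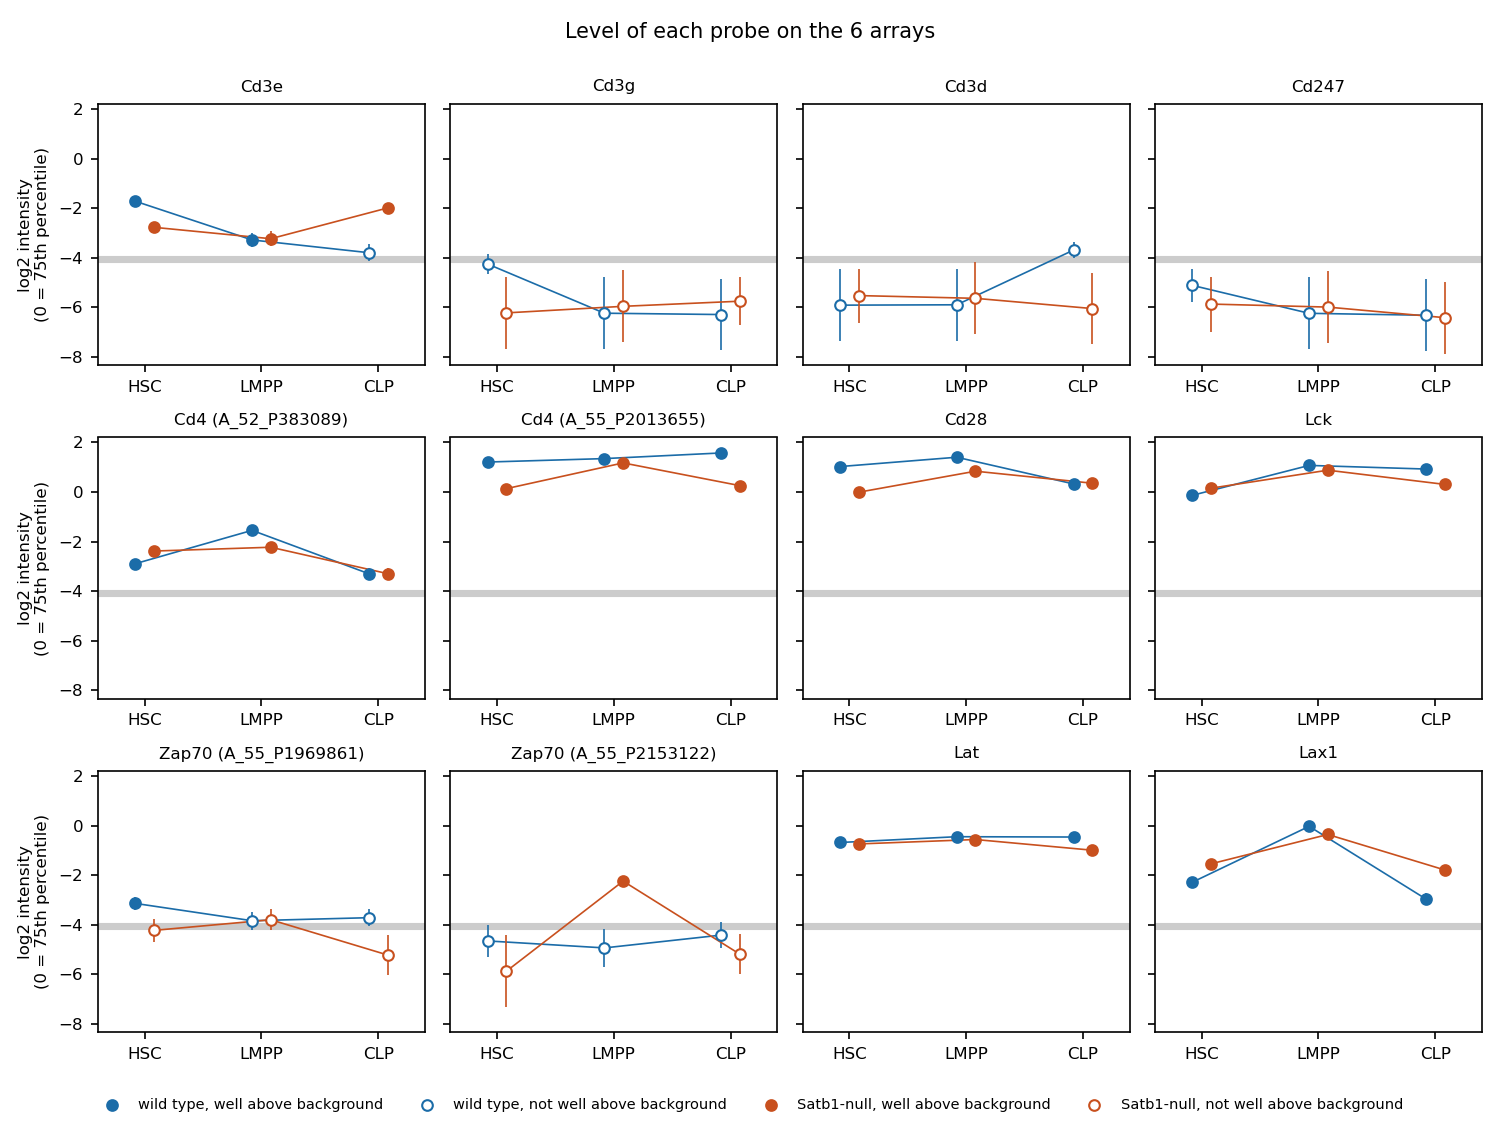
Log2 intensity of the 12 probes (y axis, 0 is the 75th percentile of the array) in HSC, LMPP and CLP (x axis) of wild type (blue) and Satb1-null (orange), 1 array per point, with the scanner's error as bars, open points not well above background and the grey band spanning the lowest signals well above background. Cd3g, Cd3d and Cd247 have open points throughout, Lat is nearly level between -0.997 and -0.45, and Lax1 peaks in LMPP in both genotypes.

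Cd4 encodes the coreceptor of helper T cells and is also made by some dendritic and innate lymphoid cells. Its 2 probes were well above background on all arrays and gave different patterns. The probe printed in 10 spots (A_52_P383089) went from -2.89 (HSC) to -1.55 (LMPP) and -3.30 (CLP) on the wild type arrays. The Satb1-null arrays gave -2.38, -2.23 and -3.29 in that order. LMPP was thus highest and CLP lowest in both genotypes, with Satb1-null LMPP and HSC within scanner error of each other, and the CLP arrays too. The probe printed in 1 spot (A_55_P2013655) gave 1.21, 1.35 and 1.58 for wild type and 0.14, 1.18 and 0.26 for Satb1-null, in the same order. Here the 3 wild type arrays lay above all Satb1-null arrays, but wild type HSC and Satb1-null LMPP differed by 0.035, within the scanner error of 0.20. Satb1-null minus wild type for this probe was -1.07 (HSC), -0.17 (LMPP, within the scanner error of 0.20) and -1.32 (CLP), whereas the other gave 0.51, -0.68 and 0.004. The probes disagree in sign in HSC, and the sources used here do not place either within the transcript.

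Cd28, the costimulatory receptor, was well above background on every array. Wild type HSC read 1.03, LMPP 1.40 and CLP 0.33, and the Satb1-null counterparts read -0.01, 0.84 and 0.36. LMPP was the highest population in both genotypes, while the lowest was CLP in wild type and HSC in Satb1-null. Satb1-null minus wild type was -1.04 (HSC), -0.56 (LMPP) and 0.03 (CLP), the last within the scanner error of 0.20.

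Lck, the kinase that starts receptor signalling, was also well above background on every array. Wild type HSC read -0.13, LMPP 1.07 and CLP 0.93, against 0.15, 0.88 and 0.31 for Satb1-null. HSC was lowest in both genotypes, though in Satb1-null it lay within scanner error of CLP (0.15 against 0.20), and wild type LMPP, wild type CLP and Satb1-null LMPP were neighbours within scanner error. Satb1-null minus wild type was 0.29 (HSC), -0.19 (LMPP) and -0.62 (CLP), and the LMPP value was within the scanner error of 0.20.

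Zap70, the kinase recruited to phosphorylated CD3 and zeta chains, was near background. Its first probe (A_55_P1969861) cleared background in wild type HSC alone, at -3.15, with a bound of -0.89 on the difference to Satb1-null HSC. Its second probe (A_55_P2153122) was so on the Satb1-null LMPP array alone, at -2.24, at least 1.79 above wild type LMPP (0.53 with normexp, under 2-fold). Neither array that one probe picked out was picked out by the other, each reading being 1 spot of 19.9 and 39.0 intensity units.

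Lat, the adaptor that carries the assembled signalling complex, had the narrowest span of the detected probes. Wild type read -0.69 (HSC), -0.45 (LMPP) and -0.46 (CLP), and Satb1-null read -0.74, -0.57 and -0.997. In the order of levels only the step down to Satb1-null CLP exceeded the scanner error, at 0.25 against 0.21. The CLP genotype difference was -0.53, and those of HSC and LMPP (-0.06 and -0.11) were within error.

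Lax1, the inhibitory adaptor, had the widest span of the probes detected on all arrays, 2.93. Wild type read -2.29 (HSC), -0.03 (LMPP) and -2.97 (CLP), and Satb1-null read -1.55, -0.36 and -1.79. LMPP was highest and CLP lowest in both genotypes, and each neighbouring pair in the order of the 6 levels differed by more than the scanner error. CLP minus LMPP was -2.93 in wild type and -1.43 in Satb1-null, and LMPP minus HSC was 2.26 and 1.19. With 1 array per group, the difference between these steps has no test. Satb1-null minus wild type was 0.74 (HSC), -0.33 (LMPP) and 1.17 (CLP, 2.26-fold higher). With normexp the HSC value was 0.24 and the CLP value 0.30, which ends the 2-fold call.

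Lax1 and the first Cd4 probe were each printed in 10 spots, which shows how far a reading varies within an array. For Lax1 the SD over the spots used was 0.07 to 0.28, widest in wild type CLP where the spots ran from -3.47 to -2.52, and the Satb1-null CLP spots ran from -1.94 to -1.70 with no overlap. For Cd4 the SD was 0.18 to 0.49, and the spots of the CLP arrays overlapped from end to end, from -4.03 to -2.57 in wild type and from -3.95 to -2.64 in Satb1-null. Repeated spots share 1 labelled sample, so their spread leaves out differences between animals, sorts and amplifications.

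**Figure D2:**
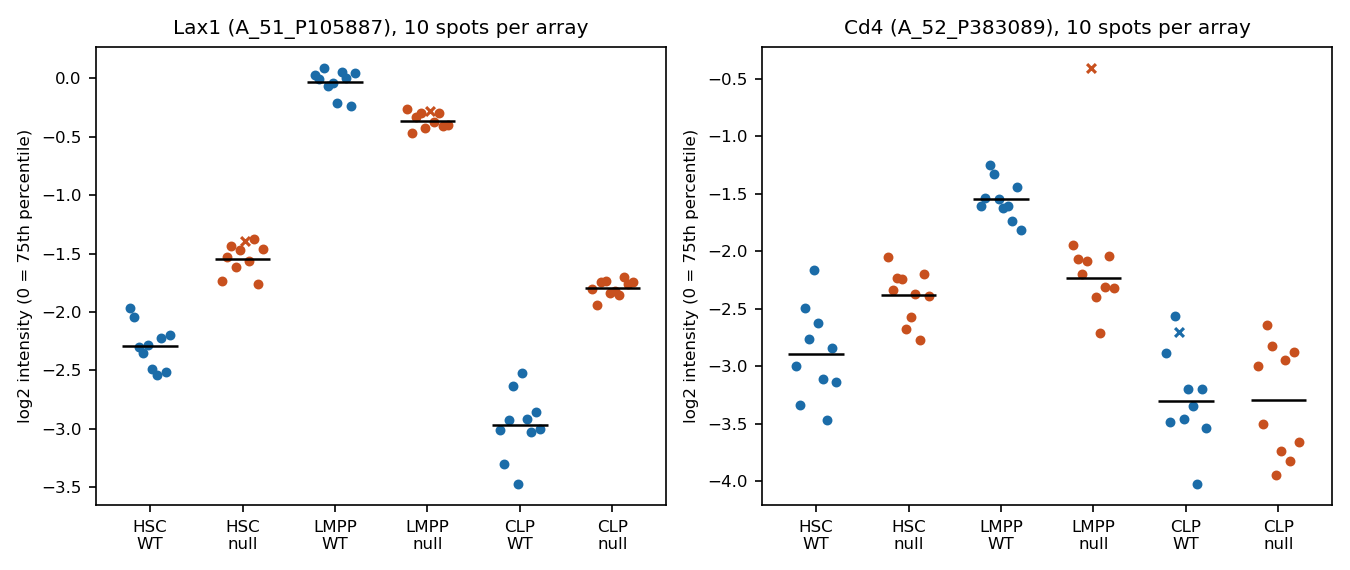
Log2 intensity (y axis, 0 is the 75th percentile) of every spot of the Lax1 probe and of the first Cd4 probe on the 6 arrays (x axis), with lines at the mean and crosses at spots left out for an outlier mark. The Lax1 spots used on the 2 arrays of each population do not overlap, and the Cd4 spots of the CLP arrays do. For Lax1 the Satb1-null array is higher in HSC and CLP and lower in LMPP (wild type from -0.23 up, Satb1-null up to -0.26). In the authors' deposited values Satb1-null minus wild type in LMPP is shifted up by 0.05, more than this LMPP gap.

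Between the genotypes, 8 probes of the 10 genes could be compared in HSC, 8 in LMPP and 7 in CLP. In HSC none was at least 2-fold higher in Satb1-null and 3 were lower, the single-spot Cd4 probe, Cd3e and Cd28, between -1.07 and -1.04. Over all 34154 probes compared there, 7.89% were at least 2-fold higher, 10.7% lower and 18.6% either, and the median was 0 against -0.48 for these genes. All 3 lay close to the threshold, and with median centring none of them reached it (Cd3e -0.87, Cd4 -0.90, Cd28 -0.85). Other scalings moved them the other way, to as low as -1.19, -1.21 and -1.17 in that order, and the Zap70 bound to -1.03. In LMPP 1 probe was higher, that of Zap70 as a bound, and none lower, against 7.14% and 5.93% of all probes (13.1% either way), and the median was -0.18 against -0.07. In CLP 2 were higher, Cd3e as a bound and Lax1, and 1 was lower, the single-spot Cd4 probe, against 12.5% and 10.8% of all probes (23.3% either way), with a median of 0.004 against -0.02. The shares in LMPP and CLP thus rest on 1 to 3 probes. No gene was past 2-fold in the same direction in all 3 populations. Markers of other cells also differed between the arrays compared. In CLP, 4 of 8 NK and innate lymphoid genes compared were at least 2-fold higher in Satb1-null and none lower. Their summed scaled intensity, mostly that of Nkg7, was 64.0 against 71.7 in wild type. Of the lymphoid tissue inducer genes 4 of 6 were higher in CLP (3.02 against 0.942). Of 4 mast cell and basophil genes 3 were higher in CLP (7.70 against 4.64), and of 7 platelet genes none was higher there and 1 was lower (33.7 against 52.3). In LMPP, 5 of 7 platelet genes (19.6 against 6.73), 4 of 6 erythroid genes (136 against 51.8) and 3 of 5 macrophage genes (1.94 against 0.575) were higher. B lineage genes were higher for 4 of 6 in HSC (4.76 against 1.24), 5 of 7 in LMPP (3.76 against 1.82) and 3 of 9 in CLP (18.8 against 10.6), with none lower. Their part in the values of the 10 genes was not tested.

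**Figure D3:**
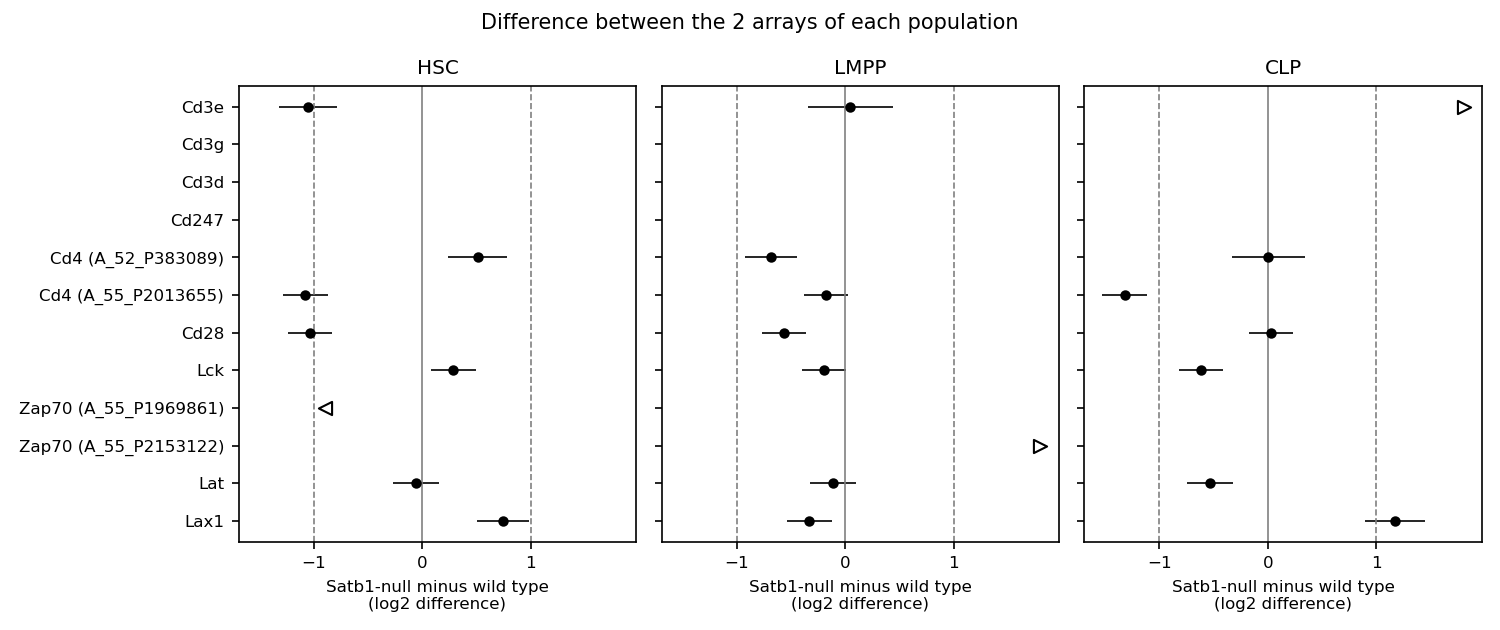
Satb1-null minus wild type log2 difference (x axis) of each probe (rows) in HSC, LMPP and CLP, with the combined scanner error as bars, triangles for lower bounds and dashed lines at 2-fold. Cd3e lies beyond the left line in HSC at -1.05 and beyond the right line in CLP at 1.81. The latter is drawn as a bound but is the plain difference to an undetected wild type reading. Rows with no mark were not well above background on either array.

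A genotype effect shared by the 3 populations was tested by limma (lmFit, then eBayes) with genotype and population as terms, for the 7 probes of 6 genes that were well above background on at least 2 arrays. Adjusted p-values (Benjamini-Hochberg) run over all 33099 probes tested. None of the 7 passed an adjusted p of 0.05 for genotype, and 0.00906% of all probes did. An unadjusted p under 0.05 was reached by 1 of the 7 and by 1891 of all probes tested. The widest difference was that of the single-spot Cd4 probe, -0.86 ± 0.31 (SE; limma adjusted p = 0.78; lower in Satb1-null in 3 of 3 populations, in LMPP within scanner error), with a 95% interval of -1.68 to -0.03. Cd28 gave -0.52 ± 0.29 (95% interval -1.30 to 0.25), Lat -0.23 ± 0.22 (-0.83 to 0.36) and Lck -0.17 ± 0.26 (-0.89 to 0.54). Lax1 gave 0.53 ± 0.36 (-0.44 to 1.502), the 10-spot Cd4 probe -0.06 ± 0.31 (-0.88 to 0.77) and Cd3e 0.27 ± 0.60 (-1.34 to 1.88). These intervals include changes of more than 1.5-fold, and for Cd3e of more than 3-fold, so that absence of a change is not shown.

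Lax1, Lck, Lat, Cd28 and the 10-spot Cd4 probe had their highest reading in LMPP in both genotypes, and Cd3e and the single-spot Cd4 probe did not. In wild type the lead of LMPP over CLP was within scanner error for Lat (0.013 against 0.209) and Lck (0.147 against 0.205). So was the lead of Satb1-null LMPP over HSC for the 10-spot Cd4 probe (0.154 against 0.258). The share of all probes with this order was not counted, so it is not shown to be particular to these genes. The order also depends on the scaling. The array median was -3.30 in wild type LMPP and -3.54 in wild type CLP, a gap wider than the Lat and Lck leads. Median centring would thus put wild type CLP above LMPP for both. LMPP against HSC over both genotypes gave Lax1 1.72 ± 0.44 (SE; limma adjusted p = 0.60), Lck 0.97 ± 0.32 (adjusted p = 0.64) and Cd28 0.61 ± 0.35, with LMPP higher in both genotypes for each. No probe of the array passed here by limma, 2574 had an unadjusted p under 0.05, and 2 of the 7 probes here did, Lax1 and Lck. CLP against LMPP gave Lax1 -2.18 ± 0.44 (4.54-fold lower; limma adjusted p = 0.093), lower in both genotypes, and the adjusted p ran from 0.033 to 0.34 over 16 alternatives. The same step gave the 10-spot Cd4 probe -1.41 ± 0.37 (adjusted p = 0.14) and Cd28 -0.78 ± 0.35 (adjusted p = 0.29). None of the 7 passed, and 2.11% of all probes did. An unadjusted p under 0.05 was reached by 2 of the 7 and by 7270 of all 33099 probes tested. CLP against HSC called none of the 7, against 1.94% of all probes. None of the 7 had an unadjusted p under 0.05, against 7558 of all 33099 probes tested. Lck was at 0.61 ± 0.32 and Lat at -0.02 ± 0.27. The CLP arrays also differed in red cell genes: the summed scaled intensity of 6 erythroid markers was 803 to 828 in CLP and 51.1 to 136 in HSC and LMPP. The list of plasmacytoid and dendritic cell genes summed to 35.2 to 36.0 in LMPP, 17.3 to 18.8 in HSC and 28.4 to 29.0 in CLP. It includes the sort marker Flt3, at a log2 level of 3.215 and 3.324 in LMPP against 0.854 and 1.784 in CLP. The order of this sum is thus partly set by the sort. The NK and innate lymphoid sum was 64.0 to 71.7 in CLP, against 18.1 to 28.4 elsewhere. Most of it was Nkg7, at a log2 level of 6.06 and 5.78 in CLP and 3.83 to 4.53 elsewhere. Klrb1c, Ncr1, Klrk1 and Eomes were not well above background on either CLP array. Of 8 genes of that list in the fit, 1 was called higher in CLP against HSC and 0 in CLP against LMPP. The CLP arrays were also higher for B lineage genes (10.6 to 18.8, against 1.24 to 4.76), platelet genes (33.7 to 52.3, against 5.10 to 19.6) and macrophage genes (8.05 to 12.6, against 0.575 to 1.94). The part of these cell types in the levels was not tested.

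The rest of the pathway was followed through lists of 64 names, of which 55 had a named probe, 36 well above background on all arrays and 7 on none, and each gene was represented by its brightest probe. In the limma fit 44 were tested, and none passed an adjusted p of 0.05 for genotype or for LMPP against HSC. In CLP against LMPP none was higher and 3 were lower, beside 1.24% and 0.864% of all probes, and the median was 0.01 against -0.12 over all probes. They were Cd27, Tespa1 and Plcg1, 1 gene each from the costimulators, the adaptors and the downstream enzymes. Cd27, a costimulatory receptor that marks early lymphoid progenitors, read 1.39 (HSC), 2.52 (LMPP) and -2.21 (CLP) in wild type, and 2.17, 3.03 and -1.14 in Satb1-null. It fell by 4.45 from LMPP to CLP (SE 0.27; limma adjusted p = 0.038). Tespa1, an adaptor of thymocyte selection, read -0.98 (HSC), -0.75 (LMPP) and -4.17 (CLP) in wild type, and -1.57, -0.76 and -3.77 in Satb1-null. Its wild type CLP reading was not well above background and entered the fit at the array's floor of -4.13. So fitted, Tespa1 fell by 3.20 (SE 0.33; adjusted p = 0.041), a size that depends on the floor. Plcg1, the phospholipase that docks on Lat, fell by 2.61 (SE 0.26; adjusted p = 0.040) and read 0.50, 0.67 and -1.78 in wild type and 0.60, 0.74 and -2.02 in Satb1-null. The same 3 genes were lower in CLP against HSC (adjusted p from 0.039 to 0.049), beside 1.03% of all probes higher and 0.906% lower, and no other list gene passed. With any 1 array left out, no probe of the whole table passed, so these calls need all 6 arrays.

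**Figure D4:**
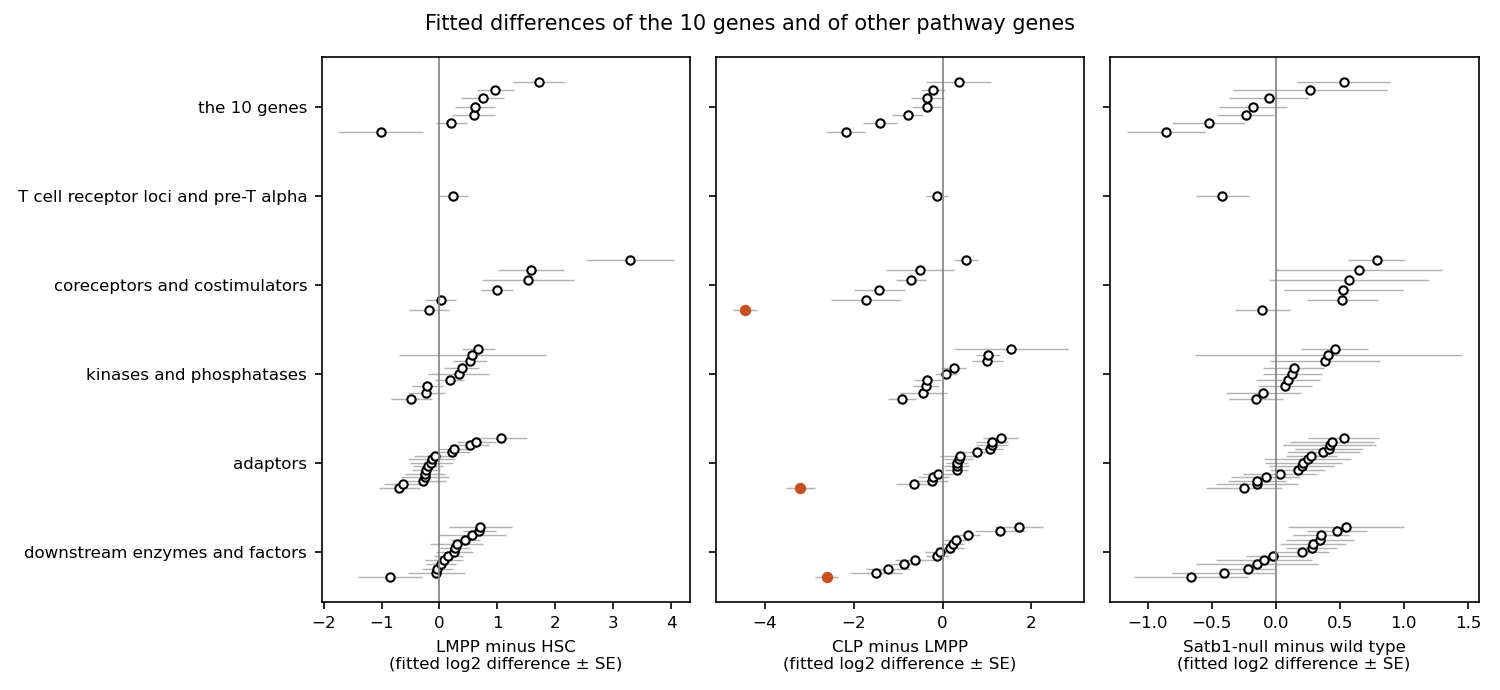
Fitted log2 differences with their standard errors (x axes) of the 7 tested probes of the 10 genes and of 44 further pathway genes by list (rows), with filled points at an adjusted p below 0.05. Of the 3 differences drawn, CLP minus LMPP has the filled points, for Cd27 (-4.45), Tespa1 (-3.20) and Plcg1 (-2.61).

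By list, the kinases and phosphatases had 9 genes tested and none called. Tec, a kinase that acts on phospholipase C gamma, was 1.42 higher in Satb1-null CLP. Among 10 coreceptors and costimulators, Cd5 was 2.38 higher in Satb1-null LMPP, and Btla, an inhibitory receptor, was 2.28 higher in Satb1-null CLP, where Cd27 was 1.06 higher. Of 20 adaptors, Ubash3a was 1.099 higher in HSC, Grap2, a partner of Lat, 1.21 higher in LMPP, and Lat2, the Lat relative of B and mast cells, 1.24 higher in CLP. Of the downstream genes, the Nfatc2 difference in HSC was -1.36, and in CLP those of Dgka and Prkcq were 1.74 and -1.36. Of the receptor loci and pre-T alpha, 1 of 9 names was matched, Ptcra, the partner of the beta chain in early thymocytes. Ptcra was well above background on every wild type array (-3.46, -3.19 and -3.20) and on no Satb1-null array (-3.75, -3.54 and -3.80). It thus met the filter for the fit through wild type alone. The fitted genotype difference of Ptcra was -0.415 ± 0.21 (SE; limma adjusted p = 0.78). This fit sets detected readings against undetected ones, so it does not decide whether the genotypes differ. Over all lists, 3 of 42 genes compared in HSC were at least 2-fold higher in Satb1-null and 2 lower, 3 of 44 and none in LMPP, and 7 of 46 and 4 in CLP. Over all probes 7.89% were higher and 10.7% lower in HSC, 7.14% and 5.93% in LMPP, and 12.5% and 10.8% in CLP. The medians were 0.19, 0.05 and 0.27, against 0, -0.07 and -0.02 over all probes.

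The genes with the most similar profile were listed as a description over the 6 arrays, which share libraries and scaling. For Lax1 these were Tmem39b (Pearson r = 0.999) and Samsn1 (0.996), and 398 of 11017 genes had an r of at least 0.9. For Lck they were Rfxank (0.997) and Srp14 (0.991), with 157 genes past 0.9, and for Lat Snap23 (0.996) and Hspg2 (0.994), with 76. For Cd28 they were Hoxc5 (0.986) and Sh2d7 (0.972), with 33. The 10-spot Cd4 probe had Tfam (0.996) and Hikeshi (0.995) with 366 genes, and the single-spot probe Fam91a1 (0.993) and Eif4e3 (0.982) with 37. The lists of the Cd4 probes name different genes, as their profiles do.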

How the data were processed

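The 6 Cy3 arrays carry labelled cDNA amplified from 6.1 ng of total RNA, per the labels' protocols. The deposited scanner files give spot intensity on a linear scale, made with Agilent Feature Extraction 10.10.1.1 on a design of build mm9, per the file headers (version 10.10 per the submitters' processing notes). The authors' deposited value table equals the processed intensity times a constant per array between 5.71 and 8.77, whose basis stays unknown. Its column medians were 200.1, 140.2, 120.7, 165.3, 145.6 and 124.9 (wild type HSC, LMPP, CLP, then Satb1-null in that order). It is linear, uncentred by gene and has 1 channel, so no direction is involved.

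Here 3671 control spots were left out, as were outlier-marked spots, of which an array had 154 to 181. The log2 processed intensity was centred on the 75th percentile of each array, and spots of 1 probe were averaged. A probe counted as well above background where this held for the majority of its spots or for an even split. Probes were named by accession through the RefSeq table of GRCm38.p6 (27248 of 55681 named), used for names and gene order only, and promoter windows come from RefSeq with that build. For the fit, undetected values were set to at least the floor of their array (its dimmest detected probe). limma 3.58.1 in R 4.3.3 fitted genotype and population with 2 residual degrees of freedom and was tested on simulated data. Nothing says that samples came from separate embryos, so p-values measure only the spread between these arrays. Differences within a population compare 2 arrays, with no test. Scanner error is the software's own error of a spot.

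The genes named were all members, Satb1 and sort markers, up to 2 list genes each way per comparison and list (past an adjusted p of 0.05, or past 2-fold where measured on both arrays), and the 2 most similar profiles per probe detected on all arrays. The members and lists were chosen with earlier results of these data known. Ptcra falls outside this rule and was chosen after its values were seen. Some list genes that the rule names are not reported here. Alternatives covered centring, background correction, normalization, the deposited table, filters, thresholds and each array left out. The normexp alternative used the median spot signal in place of the mean signal.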

Additional observations from a re-analysis of the deposited data

Results flagged for a closer look

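Cd3e differed between the genotypes in opposite directions in 2 populations. The Satb1-null array was lower in HSC, at -1.05, and higher in CLP, at 1.81 against a wild type reading not well above background. With normexp these were -0.46 and 0.45, both under 2-fold. With 1 array per group the difference between these effects was not tested. Without either CLP array the fitted genotype difference of Cd3e was -0.50, against 0.27 with all arrays.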

How the results depend on the processing

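No paired analysis was possible because each group has 1 array and the labels give no replicate numbers to use as a block, although the fit with population as a term compares the genotypes within each population. None of the 7 tested probes of the 10 genes passed in the 4 limma comparisons under any alternative run, except 1, Lax1, in CLP against LMPP with normexp (-1.18, adjusted p = 0.033). With any 1 array left out, 0 probes of the whole table passed in any of the 4 comparisons. For genotype, the 3 probes called became 0 with quantile normalization, 0 with no filter and floor, and 1 with 1 probe per gene. For CLP against LMPP, the 698 calls became 460 with the percentile over detected probes, 1056 with median centring, 2453 with normexp, 291 with quantile normalization, 0 with no filter and floor, 1141 with 1 probe per gene and 2579 with an intensity trend. For CLP against HSC, the 642 calls became 1233 with median centring, 2429 with normexp, 181 with quantile normalization, 0 with no filter and floor, 1100 with 1 probe per gene and 2075 with a trend. The cause was not tested.

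Counts past 2-fold moved in HSC from 6354 to 1320 (normexp), 12351 (no filter and floor), 12890 (1.5-fold) and 2558 (3-fold), and for the 10 genes from 3 to 0, 6, 5 and 0, and to 0 with median centring. In LMPP they moved from 4157 to 649, 8904, 9027 and 1621, and for the 10 genes from 1 to 0 (normexp) and 2 (1.5-fold). In CLP they moved from 7588 to 2357, 13154, 13792 and 3729, and for the 10 genes from 3 to 1 (normexp), 5 (no filter and floor) and 1 (3-fold). The counts with no filter and floor include probes not well above background on either array, such as Cd3g in HSC and Cd3d in CLP. The higher and lower counts for CLP against HSC were 342 and 300, against 907 and 326 with median centring, 192 and 291 with the detected percentile, 118 and 63 with quantile normalization and 190 and 252 in the authors' values. In HSC they were 2696 and 3658, against 3619 and 2707 with median centring and 2169 and 4585 with the detected percentile, and in LMPP 2271 and 1886, against 486 and 163 with normexp. Median centring moved the median of all probes by 0.18 in HSC, 0.39 in CLP against HSC, 0.21 in CLP against LMPP and 0.18 in LMPP against HSC, and the detected percentile by -0.14, -0.23, -0.09 and -0.15.

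Of the fitted differences that turned sign, none was called. In CLP against HSC, Cd28 was 0.217 and Lat 0.369 with median centring, and Lat 0.11 with quantile normalization.

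With 1 array left out in turn, the range crossed 0 in the genotype fit for Cd3e (-0.502 to 0.928), the 10-spot Cd4 probe (-0.339 to 0.257), Lck (-0.405 to 0.048). In CLP against LMPP it did so for Cd3e (-0.792 to 1.517), the single-spot Cd4 probe (-0.856 to 0.167), Lat (-0.445 to 0.001). In CLP against HSC it did so for Cd3e (-1.803 to 0.505), the single-spot Cd4 probe (-0.103 to 0.592), Cd28 (-0.583 to 0.246), Lat (-0.239 to 0.207), Lax1 (-0.945 to 0.022).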
